A study of Mus musculus with 6 samples.

Results

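Pleiotrophin (Ptn) and midkine (Mdk) are small secreted cytokines that bind heparin, and they act on cells largely through proteoglycans and the receptors that partner with them. A proteoglycan is a core protein that carries long sulfated sugar chains. Glypicans (Gpc1, Gpc3, Gpc4) are heparan sulfate core proteins tethered to the outer cell surface by a lipid anchor, and syndecans (Sdc1, Sdc4) are heparan sulfate core proteins that span the membrane. The sulfation pattern of the chains sets which ligands bind, and it is edited after synthesis by the extracellular 6-O-endosulfatases Sulf1 and Sulf2. Ust encodes the uronyl 2-O-sulfotransferase of chondroitin and dermatan sulfate, the other family of sulfated chains. In the intestine these chains hold Wnt, Fgf and other growth factor ligands close to the cells.

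The 10 genes were chosen on measured values of these same libraries, because Ptn, Gpc1 and Ust differ between the genotypes, and the other 7 were added as their ligand, core protein and chain-editing relatives. The genotype differences of the 10 genes are therefore given as a description, with no test. They are 10 of 34866 genes in the table, and all 10 were among the 16536 genes kept for testing after low counts were filtered out. Estimated counts of the 10 genes ran from 9 to 16665 per library.

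RNA was sequenced from intestinal adenomas excised from C57BL/6J mice aged 100 to 120 days, 3 libraries from Apc1322T/+ mice (Apc1322T) and 3 from ApcMin/+ mice (ApcMin). Both alleles are germline truncations of the tumour suppressor Apc carried over a wild-type copy, and no library of normal tissue was part of this comparison. Per the study's methods, RNA extractions of 1 mouse were usually pooled into a sample, so that a library can stand for several adenomas of an animal. Each library was made from 1 μg of total RNA with a strand-specific kit and held 23132461 to 33518324 estimated counts.

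Excised adenomas hold several cell types, and in such bulk samples fewer cells of a type and less RNA per cell cannot be told apart. Markers of the labelled tissue were abundant: the summed level of 9 epithelium markers was 13738 to 17040 CPM (counts scaled to library size) in Apc1322T and 11156 to 13245 CPM in ApcMin, and none was at 0. The 7 fibroblast markers summed to 552 to 1420 CPM in Apc1322T and 886 to 3123 CPM in ApcMin. ApcMin replicate 1 stood apart with the highest fibroblast sum and with 157 CPM of 6 pancreatic acinar markers, against at most 1.05 CPM in the other 5 libraries. The part of these differences in the results was not tested.

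Start-site sequence was looked up for all 10 genes among RefSeq promoters (GRCm38.p6), and 7 genes had an entry. The sequences just upstream of Ptn, Ust and Gpc3 are shown because these are the members with the largest differences between the genotypes. Each is written 5′ to 3′ on the minus strand, on which all 3 genes lie, and stops outside the annotated gene. The Ptn stretch is chr6:36810221-36810429, the Ust stretch is chr10:8518826-8519075 and the Gpc3 stretch is chrX:52613975-52614224.
Ptn: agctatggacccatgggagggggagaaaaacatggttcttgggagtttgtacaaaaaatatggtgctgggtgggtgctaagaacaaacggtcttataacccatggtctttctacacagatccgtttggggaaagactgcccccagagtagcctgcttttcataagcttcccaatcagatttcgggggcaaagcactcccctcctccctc
Ust: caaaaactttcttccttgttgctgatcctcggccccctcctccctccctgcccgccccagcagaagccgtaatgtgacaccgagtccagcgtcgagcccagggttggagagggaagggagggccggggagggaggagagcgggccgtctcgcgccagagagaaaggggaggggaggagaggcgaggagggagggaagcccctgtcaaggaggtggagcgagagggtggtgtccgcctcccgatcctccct
Gpc3: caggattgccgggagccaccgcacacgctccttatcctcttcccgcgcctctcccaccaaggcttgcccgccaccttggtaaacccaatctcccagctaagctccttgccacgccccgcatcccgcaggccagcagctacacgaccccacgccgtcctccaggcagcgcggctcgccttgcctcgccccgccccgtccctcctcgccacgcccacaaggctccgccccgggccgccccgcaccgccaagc
The G and C content of these stretches was 49.8% for Ptn, 66.4% for Ust and 71.6% for Gpc3. The core motif of TCF/LEF, the DNA-binding partners of β-catenin, was searched as CTTTGAT and, on the other strand, ATCAAAG, from 250 bases before to 50 bases after each start. It was found in none of the 8 promoters of the 7 matched genes. Of 32851 mouse promoters of the same length outside the chromosome of Apc, 3.73% held it, so nothing is read from its absence among 8.

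Compared by length, the syndecans were the most abundant members and Ust the least. Levels in TPM (counts scaled by exon length and library) averaged 235 for Sdc1, 129 for Sdc4, 96.2 for Sulf2 and 37.0 for Gpc4 over the 6 libraries, and this order of the top 4 genes was the same in every library. Below them came Gpc1 at 16.7 TPM, Ptn at 12.0 TPM, Gpc3 at 7.21 TPM, Mdk and Sulf1 at 4.56 TPM each, and Ust at 0.756 TPM. The ranges over all libraries overlapped for Sdc4 and Sulf2 and for Ptn and Gpc3, although the first of each pair was the higher in 6 of 6 libraries. They also overlapped for Gpc1 and Ptn (Gpc1 higher in 5 of 6 libraries), for Gpc3 and Mdk and for Mdk and Sulf1 (the first higher in 3 of 6 libraries each). The ranges of Sdc1 and Sdc4, of Sulf2 and Gpc4, of Gpc4 and Gpc1, and of Sulf1 and Ust did not overlap. With the longest transcript as the length, Sulf1 averaged 7.65 TPM and Gpc4 30.8 TPM.

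**Figure D1:**
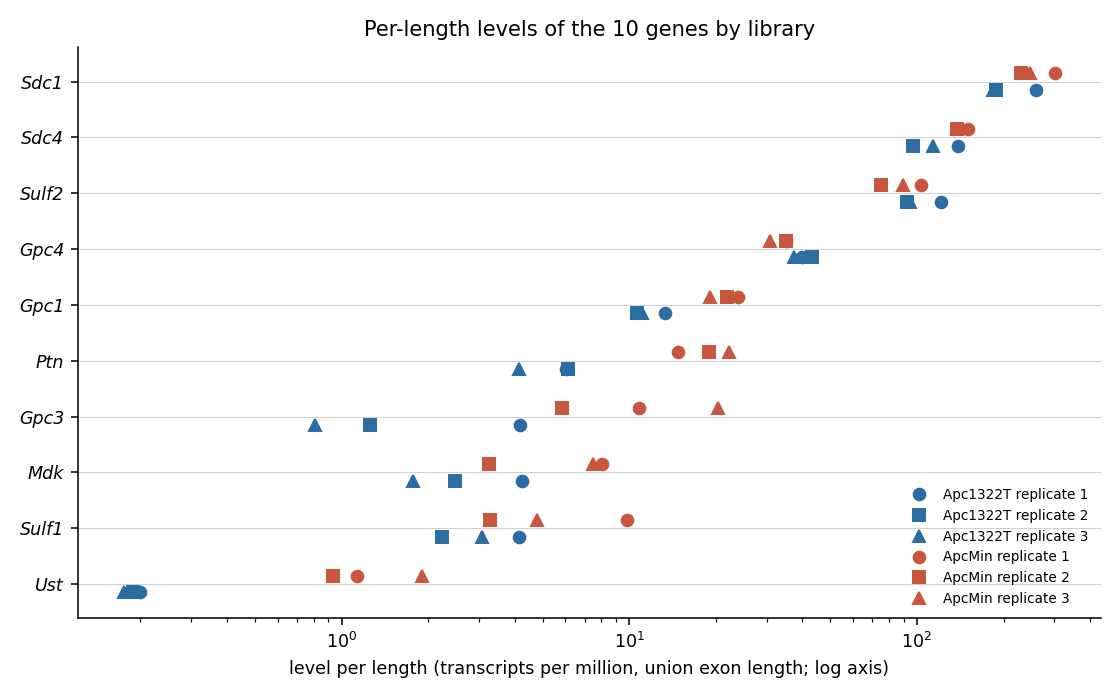
Level per length of the 10 genes (x axis, TPM, log axis), 1 point per library, with the Apc1322T libraries in blue and the ApcMin libraries in red. Sdc1, Sdc4, Sulf2 and Gpc4 keep their order in every library, whereas Gpc3 runs from 0.806 to 20.4 TPM.

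Between the genotypes, 8 of the 10 genes had a higher mean in ApcMin and 2 a lower one. The libraries of the genotypes did not overlap for Ptn, Gpc1, Gpc3 and Ust, which were higher in ApcMin, a pattern held by 11.0% of all tested genes. They did not overlap for Gpc4 and Sulf2, which were lower in ApcMin, as were 9.96% of all tested genes. The median log2 fold change (ApcMin over Apc1322T) was 0.74 over the 10 genes and 0.017 over all tested genes. None of the 10 was called by edgeR's quasi-likelihood test at a Benjamini-Hochberg adjusted p under 0.01, which called 0% of tested genes, whereas 15.1% had an unadjusted p under 0.05. DESeq2 called 1.12% of the genes it tested at the same adjusted threshold, and Ptn, Gpc1, Gpc3 and Ust were among them. Nothing is read from these calls, since the same contrast was used to choose the genes.

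**Figure D2:**
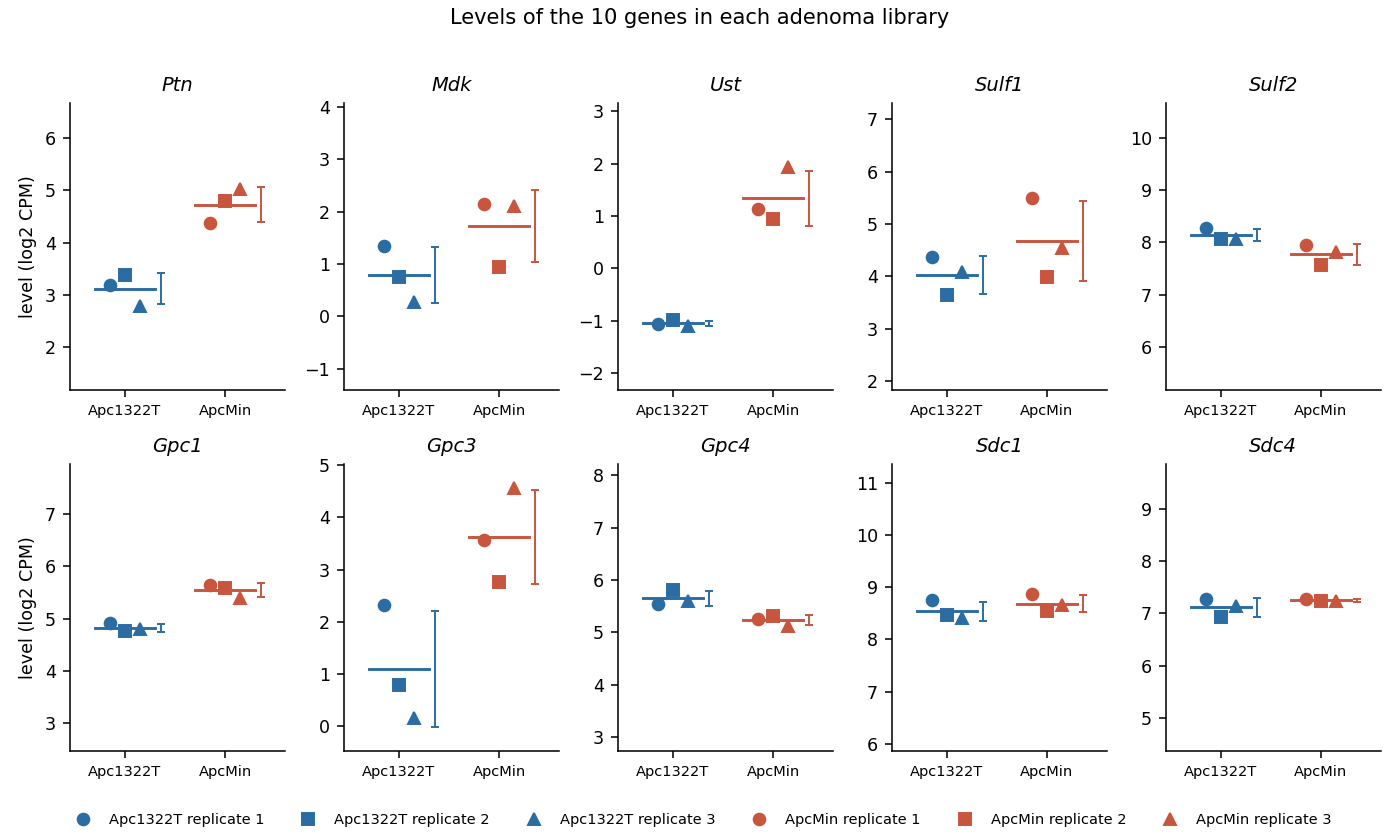
Level of each gene in log2 CPM (y axis, equal span in every panel), 1 point per library, with horizontal lines for the genotype means and side bars for 1 SD (n = 3). Ptn, Gpc1, Gpc3 and Ust lie higher in all ApcMin libraries, Gpc4 and Sulf2 lie lower in all of them, and the other 4 genes overlap.

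Of the cytokines, Ptn (chr6:36714929-36810220) measured 3.19, 3.38 and 2.80 log2 CPM in Apc1322T replicates 1 to 3. In ApcMin replicates 1 to 3 it measured 4.37, 4.80 and 5.02 log2 CPM. Every ApcMin library was above every Apc1322T library, and the gap between the groups was wider than the range within either. The log2 fold change was 1.62 ± 0.22 (SE), or 3.08-fold, and it stayed between 1.47 and 1.78 when any library was left out. In estimated counts this was 157 to 246 against 705 to 1026 per library.

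Midkine, the only other member of the cytokine family, behaved less uniformly. Mdk (chr2:91929805-91932297) measured 1.34, 0.76 and 0.28 log2 CPM in Apc1322T and 2.14, 0.94 and 2.11 log2 CPM in ApcMin. ApcMin replicate 2 lay below Apc1322T replicate 1, so the groups overlapped. The log2 fold change was 1.00 ± 0.44 (SE). Per length, Ptn was 1.42, 2.46 and 2.33 times Mdk in Apc1322T and 1.83, 5.79 and 2.95 times Mdk in ApcMin, and these ratios also overlapped.

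Among the glypicans, Gpc1 (chr1:92831645-92860779) was the least variable of those higher in ApcMin. It measured 4.92, 4.76 and 4.80 log2 CPM in Apc1322T and 5.65, 5.60 and 5.39 log2 CPM in ApcMin. The groups did not overlap, and the log2 fold change was 0.72 ± 0.10 (SE), or 1.65-fold. Gpc1 overlaps Ankmy1 on the opposite strand.

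Gpc3 had a large but uneven difference. Gpc3 (chrX:52272426-52613950), a glypican best known from fetal tissue and overgrowth syndromes, measured 2.32, 0.80 and 0.17 log2 CPM in Apc1322T and 3.57, 2.76 and 4.55 log2 CPM in ApcMin. The groups did not overlap, although Apc1322T replicate 1 came close to ApcMin replicate 2. The log2 fold change was 2.44 ± 0.71 (SE), or 5.43-fold, and it ran from 1.85 without ApcMin replicate 3 to 3.36 without Apc1322T replicate 1. The spread of Gpc3 within genotypes was wider than that of 95.4% of tested genes.

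Gpc4, which lies 107173 bases from Gpc3 on the same strand (chrX:52053021-52165252), went the other way. It measured 5.54, 5.81 and 5.59 log2 CPM in Apc1322T and 5.25, 5.32 and 5.13 log2 CPM in ApcMin. The groups did not overlap, and the log2 fold change was -0.42 ± 0.11 (SE). The make-up of the glypicans measured here differed accordingly. Gpc4 held 69.5%, 78.4% and 75.9% of the summed TPM of the 3 glypicans in Apc1322T, and 50.4%, 55.9% and 43.9% in ApcMin. Gpc3 held 7.26%, 2.28% and 1.63% in Apc1322T, and 15.4%, 9.25% and 29.0% in ApcMin. Neither share overlapped between the genotypes. For Gpc4 this follows from the levels, since by TPM Gpc4 was lower and Gpc1 and Gpc3 were higher in every ApcMin library.

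The syndecans, in contrast, were close in level between the genotypes. Sdc1 (chr12:8771323-8793715), the main syndecan of epithelia and also a plasma cell surface marker, measured 8.75, 8.47 and 8.40 log2 CPM in Apc1322T and 8.86, 8.55 and 8.65 log2 CPM in ApcMin. Sdc4 (chr2:164424247-164443887), a syndecan of focal adhesions, measured 7.27, 6.93 and 7.14 log2 CPM in Apc1322T and 7.28, 7.23 and 7.23 log2 CPM in ApcMin. Both overlapped, with Apc1322T replicate 1 among the high libraries for each. The log2 fold changes were 0.15 ± 0.14 (SE) for Sdc1 and 0.13 ± 0.10 (SE) for Sdc4. The 4 plasma cell markers summed to 368 to 503 CPM in Apc1322T and to 256 to 913 CPM in ApcMin, highest in ApcMin replicate 3. The part of plasma cells in the Sdc1 values was not tested.

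Of the chain-modifying enzymes, Ust had the largest fold change of the 10 genes and the fewest reads. Ust (chr10:8204756-8518825) measured -1.07, -1.0 and -1.10 log2 CPM in Apc1322T and 1.13, 0.94 and 1.94 log2 CPM in ApcMin. These levels rest on estimated counts of 11, 9 and 9 in Apc1322T and 76, 47 and 119 in ApcMin. The groups did not overlap. The 3 Apc1322T libraries lay close together, but with 9 to 11 counts and a prior count of 2 this cannot be read as a small spread. The log2 fold change was 2.65 ± 0.39 (SE), or 6.26-fold, and it ran from 2.27 to 2.83 when any library was left out.

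The endosulfatases Sulf1 and Sulf2 remove the same 6-O-sulfate groups but their means lay in opposite directions. Sulf1 (chr1:12692277-12861192) measured 4.36, 3.65 and 4.08 log2 CPM in Apc1322T and 5.49, 3.99 and 4.53 log2 CPM in ApcMin. The groups overlapped, and the log2 fold change of 0.75 ± 0.41 (SE) came down to 0.23 without ApcMin replicate 1. That library had the most fibroblast marker RNA, and its part in the Sulf1 difference was not tested. Sulf2 (chr2:166073089-166155663) measured 8.28, 8.06 and 8.07 log2 CPM in Apc1322T and 7.95, 7.56 and 7.81 log2 CPM in ApcMin. Its groups did not overlap, and the log2 fold change was -0.36 ± 0.13 (SE). Sulf2 overlaps Ncoa3 on the opposite strand. Per length, Sulf2 was 29.3, 41.3 and 30.7 times Sulf1 in Apc1322T and 10.6, 23 and 18.7 times Sulf1 in ApcMin, without overlap.

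The libraries did not contribute evenly. ApcMin replicate 1 was the highest library for 5 of the 10 genes and ApcMin replicate 3 for 3, while Apc1322T replicate 3 was the lowest for 5. Without Apc1322T replicate 1, 9 of the 10 genes had no overlap between the genotypes, against 48.0% of all genes. The median log2 fold change of the 10 genes was 0.45 without ApcMin replicate 1.

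Marker lists of the cell types that an adenoma can hold were set beside these values. The 9 epithelium markers had a mean log2 CPM lower by 0.39 in ApcMin than in Apc1322T (exact permutation test, two-sided, p = 0.20). Of the 9, 5 were lower in every ApcMin library, against 9.96% of all tested genes. The 7 fibroblast markers had a mean higher by 0.90 in ApcMin (exact permutation test, two-sided, p = 0.20). Of the 7, 2 were higher in every ApcMin library, against 11.0% of all tested genes. With 3 libraries against 3, the smallest p this test can give is 0.10. Smooth muscle markers summed to 133 to 266 CPM in Apc1322T and 286 to 420 CPM in ApcMin, without overlap. Their mean log2 CPM was higher by 0.68 in ApcMin (exact permutation test, two-sided, p = 0.10). The margin was narrow, with means of 4.98 in Apc1322T replicate 3 and 4.99 in ApcMin replicate 3. Of the 7, 2 were higher in every ApcMin library. Squamous epithelium markers summed to 10.8 to 13.3 CPM in Apc1322T and 37.7 to 51.9 CPM in ApcMin, also without overlap. The mean log2 CPM of the tested ones was higher by 1.45 in ApcMin (exact permutation test, two-sided, p = 0.10). The squamous markers did not all go the same way. Of 8, 6 were tested, and 3 were higher and 1, Dsg3, was lower in every ApcMin library (11.0% and 9.96% of all tested genes). The 6 endothelium markers summed to 99.9 to 147 CPM in Apc1322T and 141 to 197 CPM in ApcMin, and the 6 immune markers to 48.8 to 62.6 and 60.2 to 112 CPM. The 8 enteric glia and neuron markers summed to 32.2 to 38.2 and 29.8 to 41.4 CPM, and the 6 gastric markers to 88.6 to 522 and 107 to 279 CPM. The mean log2 CPM of the gastric markers was higher by 1.14 in ApcMin (exact permutation test, two-sided, p = 0.20). Of the 6 gastric markers, 1 was higher in every ApcMin library, against 11.0% of all tested genes. No marker was at 0 in all libraries.

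**Figure D3:**
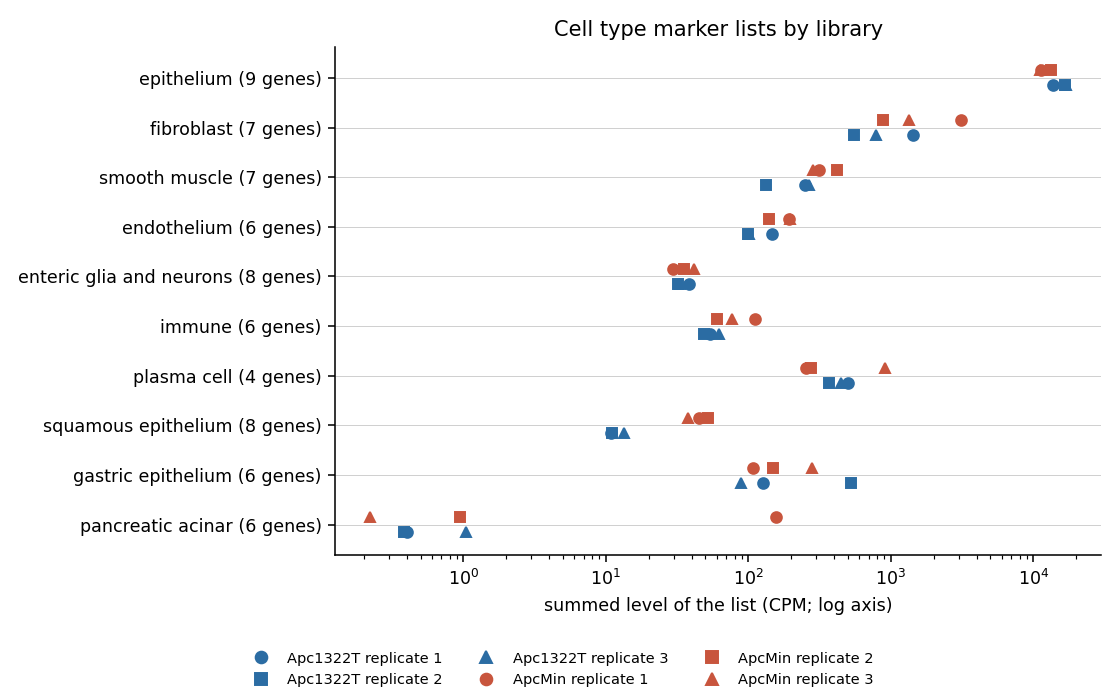
Summed CPM of each marker list (x axis, log axis), 1 point per library, with the Apc1322T libraries in blue and the ApcMin libraries in red. The fibroblast sum is highest in ApcMin replicate 1 (3123 CPM), the squamous sums do not overlap, and the pancreatic acinar sum reaches 157 CPM in ApcMin replicate 1 alone.

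Levels were also expressed relative to the fibroblast list, by subtracting the mean log2 CPM of its 7 markers in each library. This lowers the mean difference of every gene by the same 0.90, so that a difference below 0.90 turns negative by construction, and only the overlap of the libraries and their spread are particular to a gene. On this scale Gpc3 was the only one of the 10 genes higher in every ApcMin library, with a difference of 1.63, as were 0.236% of all tested genes. The margin was narrow, with Gpc3 at -3.99 in ApcMin replicate 1 and at -4.08 in Apc1322T replicate 1. Ptn (0.71), Ust (1.49) and Mdk (0.038) overlapped. The overlap of Ust was also narrow, at -6.43 in ApcMin replicate 1 and -6.30 in Apc1322T replicate 2. Gpc1 (-0.18), Sulf1 (-0.26), Sdc1 (-0.75) and Sdc4 (-0.77) also overlapped. Sulf2 was lower in every ApcMin library (-1.27), as were 11.1% of all tested genes, and Gpc4 was lower by mean and overlapped (-1.32). By library, Sulf1 measured -2.04, -1.65 and -1.69 on this scale in Apc1322T and -2.07, -2.10 and -1.99 in ApcMin. The part of fibroblast RNA in the Sulf1 values was not tested.

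Relative to the epithelium list, which raises every difference by the same 0.39, Ptn (2.00), Gpc1 (1.11), Gpc3 (2.92) and Ust (2.78) were higher in every ApcMin library, as were 28.9% of all tested genes. Gpc4 (-0.029) and Sulf2 (0.022) overlapped on this scale. How much of each difference comes with the cell make-up of the adenomas was not tested.

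**Figure D4:**
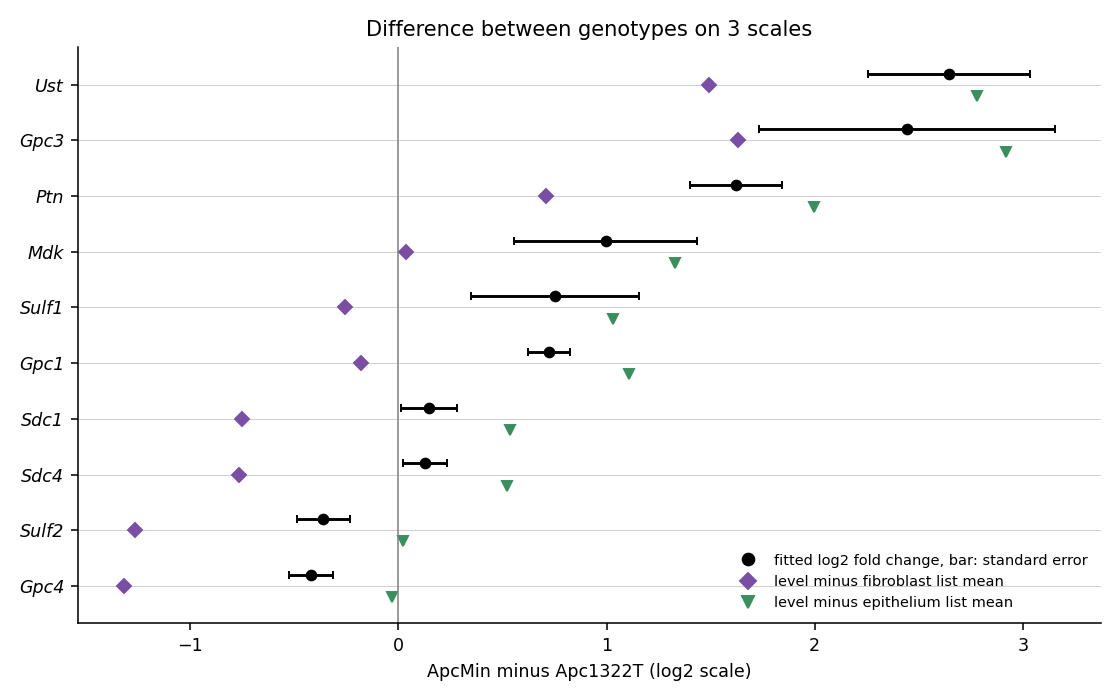
Difference between the genotypes (x axis, ApcMin minus Apc1322T, log2 scale) for each gene: the fitted log2 fold change with its SE (black), the difference after subtracting the fibroblast list (purple) and after subtracting the epithelium list (green). The purple and green points are shifted by the same amount for every gene, 0.90 down and 0.39 up from the difference of the mean levels.

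The genes around these 10 in the pathway were followed in 8 lists with 95 genes, of which 78 passed the filter. None passed edgeR's quasi-likelihood test at an adjusted p under 0.01 or under 0.05, and the smallest Benjamini-Hochberg adjusted p was 0.257, for Fam20b. At an unadjusted p under 0.05, 11 were higher and 3 lower in ApcMin, together 17.9% of the 78, against 15.1% of all tested genes. The libraries did not overlap for 14 higher genes (17.9% of 78, against 11.0% of all tested genes) and 4 lower genes (5.13%, against 9.96%), and the median log2 fold change of the 78 genes was 0.23. The count of 14 genes at an unadjusted p under 0.05 was 28 without Apc1322T replicate 1, where 24.4% of all genes passed, 9 without Apc1322T replicate 2, where 6.92% passed, and 22 without TMM scaling, where 17.8% passed. DESeq2 called 1 of the genes, Hs6st2, or 1.28% of the 78, near its 1.12% over all genes.

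Of 13 receptors of pleiotrophin and midkine, 11 were tested and none was separated between the genotypes. Over all tested genes, 11.0% were higher and 9.96% lower without overlap, so nothing is read from its absence among 11 genes. The median log2 fold change of the 11 receptors was 0.15, and 0.30 without Apc1322T replicate 1, with 8 higher and 3 lower by mean. Ptprz1, the receptor phosphatase that binds pleiotrophin through its chondroitin sulfate chains, measured 3.75, 3.56 and 3.76 log2 CPM in Apc1322T and 4.05, 3.12 and 2.71 log2 CPM in ApcMin. The groups of Ptprz1 overlapped, and its log2 fold change was -0.29 ± 0.34 (SE). Alk, a receptor tyrosine kinase, had at most 2 estimated counts in any library and was not tested.

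Of 9 other heparan sulfate core proteins, 8 were tested, with a median log2 fold change of 0.64 that was 0.35 without ApcMin replicate 1. Of these, 3 (37.5%, against 11.0% of all tested genes) were higher in every ApcMin library, namely the glypican Gpc6 (1.22 ± 0.54, SE), the TGF-β co-receptor Tgfbr3 (1.10 ± 0.33, SE) and the syndecan Sdc3 (0.72 ± 0.19, SE). Gpc6 was a low gene, with 3 to 12 estimated counts in Apc1322T and 15 to 34 in ApcMin. The basement membrane core proteins Agrn (-0.10) and Hspg2 (0.56) overlapped between the genotypes, as did Sdc2 and Gpc2.

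The enzymes that build the chains differed little by their median, with 8 higher and 3 lower by mean in ApcMin. The 11 genes of the shared linker and of heparan sulfate polymerization had a median log2 fold change of 0.13, and of 0.047 without ApcMin replicate 1. Xylt2, a xylosyltransferase that starts the linker, was higher in every ApcMin library (0.39 ± 0.12, SE). Fam20b, the kinase that phosphorylates the linker xylose, was lower in every one of them (-0.42 ± 0.10, SE), at 7.62, 7.61 and 7.71 log2 CPM in Apc1322T and 7.24, 7.36 and 7.07 log2 CPM in ApcMin. The polymerases Ext1 (0.12) and Ext2 (0.02) overlapped.

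Of 18 genes of heparan sulfate modification and cleavage, 9 were tested and their median log2 fold change was 0.11. Hs6st2, which adds the 6-O-sulfate groups that Sulf1 and Sulf2 remove, measured 1.01, 0.87 and 0.56 log2 CPM in Apc1322T and 1.82, 2.35 and 3.56 log2 CPM in ApcMin. The groups did not overlap, and the log2 fold change was 1.98 ± 0.48 (SE). ApcMin replicate 3 was the highest and Apc1322T replicate 3 the lowest library for Hs6st2, as they were for Gpc3, Ptn and Ust. Hs6st2 (chrX:51387212-51681856) lies 371164 bases from Gpc4 on the X chromosome, the nearer of the X-linked glypicans measured here. The related Hs6st1 was higher by 0.11 and overlapped. Glce, the glucuronyl epimerase, was higher in every ApcMin library by 0.25 ± 0.10 (SE).

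On the chondroitin and dermatan sulfate side, to which Ust belongs, 14 of 15 synthesis genes were tested and 13 had a higher mean in ApcMin, with a median log2 fold change of 0.40. The median was 0.22 without ApcMin replicate 1 and 0.64 without Apc1322T replicate 1. Of the 14 genes, 4 (28.6%, against 11.0% of all tested genes) were higher in every ApcMin library. Chst11, a chondroitin 4-O-sulfotransferase, measured 4.40, 3.45 and 3.87 log2 CPM in Apc1322T and 4.93, 4.86 and 4.84 log2 CPM in ApcMin. The log2 fold change of Chst11 was 0.92 ± 0.23 (SE). Chst3, a chondroitin 6-O-sulfotransferase, was higher by 1.11 ± 0.38 (SE) but had only 6 to 13 estimated counts in Apc1322T and 22 to 38 in ApcMin. The dermatan sulfate epimerase Dse (0.71) and the chain-starting Csgalnact2 (0.32) were the other two. Of 10 chondroitin and dermatan sulfate core proteins, 7 were tested, and all 7 overlapped. Over all tested genes, 11.0% were higher and 9.96% lower without overlap. The 7 included decorin (Dcn, 0.72) and biglycan (Bgn, 0.94), which are made by fibroblasts. The median log2 fold change of these 7 was 0.53, and 0.13 without ApcMin replicate 1. The fibroblast marker sums given above were also higher by mean in ApcMin, and their part in the values of these lists was not tested.

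The 5 genes that supply the sulfate donor had a median log2 fold change of -0.050. Papss1, which makes the donor PAPS, was lower in every ApcMin library (-0.27 ± 0.12, SE). Of 14 heparin-binding growth factors and Fgf receptors, 13 were tested, with a median log2 fold change of 0.091 (0.26 without ApcMin replicate 3, 0.17 without Apc1322T replicate 1, 0.18 without Apc1322T replicate 3 and 0.14 without ApcMin replicate 2) and differences in both directions. Fgf2 (1.01 ± 0.29, SE), the chemokine Cxcl12 (0.84 ± 0.31, SE) and Vegfa (0.37 ± 0.10, SE) were higher in every ApcMin library. They were 23.1% of the 13, against 11.0% of all tested genes. Fgf1 (-0.87 ± 0.25, SE) and Fgfr3 (-0.53 ± 0.21, SE) were lower in every ApcMin library, 15.4% of the 13, against 9.96% of all tested genes. Fgf1 and Fgf2, both heparin-binding Fgfs, thus lay in opposite directions by mean. Fgf1 measured 4.40, 3.78 and 4.03 log2 CPM in Apc1322T and 2.73, 3.35 and 3.51 log2 CPM in ApcMin. Fgf2 measured 2.50, 1.77 and 2.26 log2 CPM in Apc1322T and 3.59, 2.79 and 3.13 log2 CPM in ApcMin.

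**Figure D5:**
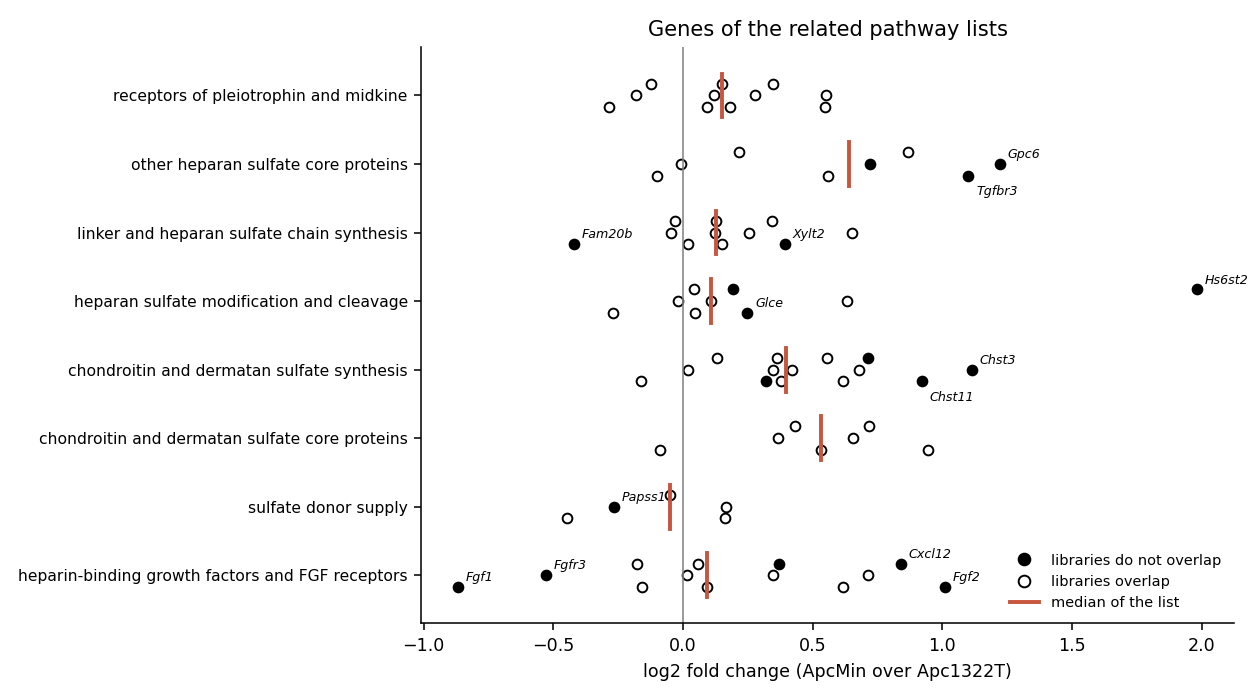
Log2 fold change (x axis, ApcMin over Apc1322T) of the 78 tested pathway genes by list, with filled points where the libraries of the genotypes do not overlap and red lines at the list medians. Hs6st2 (1.98) lies farthest to the right and Fgf1 (-0.87) farthest to the left, and no receptor of pleiotrophin or midkine is filled. Over all tested genes, 11.0% were higher and 9.96% lower without overlap.

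The 17 list genes that were not tested had at most 21 estimated counts in any library. They were Alk, Lrp2, Gpc5, Ndst3, Ndst4, Hs3st2, Hs3st3a1, Hs3st4, Hs3st5, Hs3st6, Hs6st3, Hpse2, Chst13, Acan, Ncan, Bcan and Fgf18. Only Hs3st2 and Hs6st3 were at 0 in all 6 libraries, and 3 counts, taken as the limit that a count of 0 allows, correspond to 0.0895 to 0.130 CPM by library.

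Genes of similar level with the pattern most like Ptn, Gpc1 and Ust over the 6 libraries were found by the root mean square difference of log2 CPM after centring each gene. The search covered tested genes with a mean within 3 log2 CPM of the gene's own, which were 11865 for Ptn, 11437 for Gpc1 and 6004 for Ust. For Ptn these were Gm7676 (0.12), the transcription factor gene Sox21 (0.15) and the interferon-induced Ifitm1 (0.18), against a spread of 0.84 for Ptn itself. For Gpc1 they were the transcription factor gene Runx2 (0.073), Hip1 (0.075) and Ddah2 (0.083), against 0.37 for Gpc1. For Ust they were the parathyroid hormone receptor gene Pth1r (0.32), Gm10689 (0.35) and the transcription factor gene Sall4 (0.38), against 1.24 for Ust. Their fitted log2 fold changes were 2.19, 6.83 and 2.94, against 2.65 for Ust, so Gm10689 was alike in log2 CPM but not in the fit. The likeness is a description over 6 libraries and carries no test.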

How the data were processed

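Single-end stranded reads of 50 bp were quantified by the authors with Salmon against GRCm38.p6, and the deposited values are estimated counts per gene, not normalised. They were rounded to whole numbers. Library groups follow the labels. Symbols and coordinates come from GENCODE M21 on GRCm38 (34652 of 34866 identifiers had a symbol and 214 had none). Genes with low counts were removed (edgeR filterByExpr, minimum count 10, minimum total 15). Differences are from edgeR 4.0.16 quasi-likelihood fits (TMM, robust, 3 against 3 libraries, R 4.3.3) with Benjamini-Hochberg adjustment. Log2 CPM used a prior count of 2. TPM used union exon length. DESeq2 1.42.0, limma-voom 3.58.1, other scalings and filters, each left-out library and a replicate block were tried, and the fit was tested on simulated data. Levels relative to marker lists were added after seeing the data. Salmon shares reads among transcripts of similar sequence, and depth limits Ust, Gpc6 and Chst3 most.

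The members and lists were chosen with earlier results of these data known. Pathway genes were named where the libraries of the genotypes do not overlap, at most 2 per list and direction by size, with all genes not tested and, for Ptn, Gpc1 and Ust, the 3 genes most alike, and Sdc3, Vegfa, Dse, Csgalnact2, Ptprz1, Agrn, Hspg2, Sdc2, Gpc2, Ext1, Ext2, Hs6st1, Dcn and Bgn were named in addition after their values were seen. The labels do not say whether libraries of a genotype came from separate animals, so the spread between them may be partly technical. The count table gave no other per-sample columns.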

Additional observations from a re-analysis of the deposited data

How the results depend on the processing

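No member changed the sign of its log2 fold change under any alternative of scaling, filter, tool or left-out library. Without TMM scaling the median log2 fold change of all genes moved from 0.017 to 0.17, and the count of pathway genes at an unadjusted p under 0.05 from 14 to 22. Calls at an adjusted p under 0.01 numbered 0 with edgeR, 194 with DESeq2 and 1 without the low-count filter. At an adjusted p under 0.05 edgeR called 1. With each library left out in turn, calls ranged from 0 to 1 (1 without ApcMin replicate 3), genes at an unadjusted p under 0.05 from 1180 (without Apc1322T replicate 2) to 4117 (without Apc1322T replicate 1), pathway genes from 9 to 28, and the median over the members from 0.45 to 0.87. The fibroblast scale lowers every gene's difference by 0.90 and the epithelium scale raises it by 0.39, so changes of sign there follow from the shift: on the first, Gpc1 (-0.18), Sdc1 (-0.75), Sdc4 (-0.77) and Sulf1 (-0.26), and on the second Sulf2 (0.022). The replicate numbers did not pair the libraries (correlations of same-numbered libraries were -0.014, 0.16 and -0.29), and with a replicate block the counts were 0 at an adjusted p under 0.01, 2113 at an unadjusted p under 0.05 and 21 pathway genes. Depth limits Ust most, with 9 to 11 estimated counts per Apc1322T library.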
